A study of Mus musculus with 6 samples.

Results

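A set of 9 transcription factor genes that build and maintain the macrophage lineage was followed in mouse macrophages exposed to tumour vesicles. They are Spi1, Runx1, Maf, the C/EBP genes Cebpa, Cebpb and Cebpd, and the MiT genes Mitf, Tfeb and Tfec. They were chosen by symbol, and all 9 were found among 26835 genes and passed the filter on low values, which left 13009 genes. The cells were bone marrow-derived macrophages from wild-type BALB/c mice of 5 to 8 weeks. Marrow had been grown for 6 days in 10% serum with M-CSF, the macrophage growth factor, at 25 ng/ml. Of the 2 groups, 1 was given vesicles (10 µg) shed by the mouse osteosarcoma line K7M2 and the other PBS (phosphate-buffered saline), both for 24 h. Each group held 3 libraries, labelled as biological replicates of independent experiments, and the labels do not say whether marrow of several animals was pooled.

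PU.1, the product of Spi1, is an ETS-family factor that opens chromatin at myeloid genes, and RUNX1 acts with its partner CBFβ upstream of it during blood formation. C/EBPα drives the step from progenitor to myeloid cell, whereas C/EBPβ and C/EBPδ are known for their induction in inflammation. c-MAF, the product of Maf, restrains macrophage proliferation and controls resident-macrophage genes. MITF, TFEB, TFEC and TFE3 bind as dimers to E-box sequences and control lysosome, autophagy and osteoclast genes, and nutrient signalling at the lysosome decides whether they enter the nucleus.

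With vesicles 4 of the 9 factors rose (Spi1, Maf, Cebpb and Cebpd), 4 fell (Cebpa, Runx1, Mitf and Tfeb) and Tfec did not pass the test. Changes of this kind were common: of all genes tested, 18.4% were higher and 35.6% lower, 54.0% in either direction (limma on log2(FPKM + 1), Benjamini-Hochberg adjusted p under 0.05). FPKM is a fragment count divided by transcript length and by the size of the library. In numbers, 2395 genes were higher and 4631 lower. The median log2 fold change over all genes was -0.12, and after median-of-ratios scaling, which brought it to -0.0024, 3445 genes were higher and 3376 lower. The 8 calls among the factors kept their direction under this and every other setting that was run. In the same 8 factors no vesicle library fell within the PBS range, 4 being higher and 4 lower. Such separation was seen in 21.8% (higher) and 42.0% (lower) of all genes tested, 63.8% together.

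**Figure D1:**
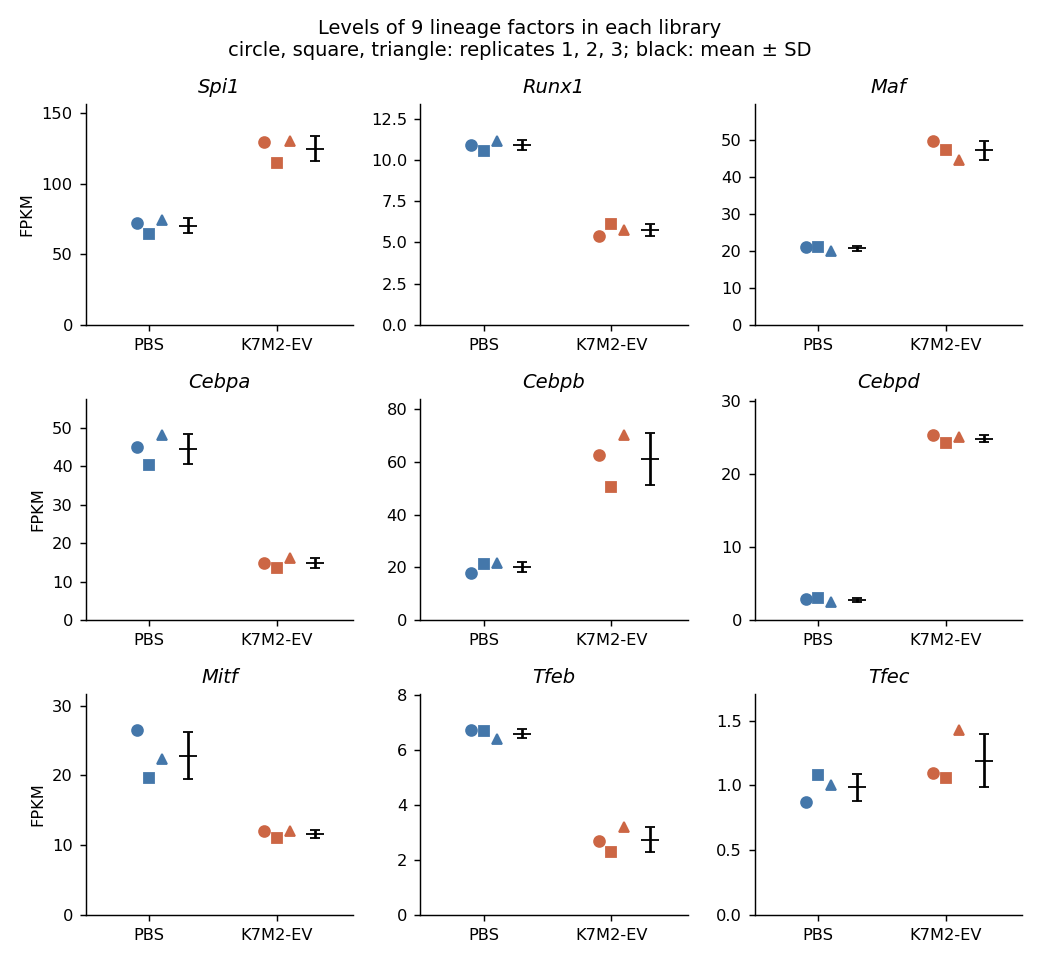
FPKM (vertical axis, from 0, with its own scale in each panel) of the 9 factors in the 3 PBS and the 3 K7M2-vesicle libraries, with the mean and SD of each group in black. Points of the groups are separate in 8 panels and overlap for Tfec, where the values lie between 0.875 and 1.43 FPKM.

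The upstream sequences of Cebpa and Cebpb are shown because these 2 members of 1 family moved in opposite directions. Both are taken from the RefSeq promoter table on GRCm38.p6, as the 250 bases before the annotated start, on the plus strand. That table matched 6 of the 9 factors by symbol, with 11 start sites. Spi1, Maf and Cebpd, which rose, had no entry, and of the matched factors only Cebpb rose. No sequence is printed beyond the start site. Capitals mark a TATA box (TATAAA) in Cebpa, at chr7:35119043-35119292, and GC boxes (GGGCGG), the motif of SP1-type factors, in Cebpb, at chr2:167688665-167688914.
Cebpa: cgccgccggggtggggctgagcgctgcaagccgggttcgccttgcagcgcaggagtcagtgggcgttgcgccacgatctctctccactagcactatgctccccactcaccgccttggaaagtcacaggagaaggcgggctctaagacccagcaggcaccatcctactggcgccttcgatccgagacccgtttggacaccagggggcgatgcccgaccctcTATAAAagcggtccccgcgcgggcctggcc
Cebpb: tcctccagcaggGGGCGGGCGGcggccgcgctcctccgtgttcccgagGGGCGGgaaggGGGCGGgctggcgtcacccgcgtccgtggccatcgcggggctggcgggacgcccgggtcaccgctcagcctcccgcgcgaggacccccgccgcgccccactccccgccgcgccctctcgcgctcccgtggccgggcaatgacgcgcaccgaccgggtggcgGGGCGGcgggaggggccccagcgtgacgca
The TATA box of Cebpa starts 30 bases before the start site. Cebpb held 5 GC boxes, of which the first 2 overlap. Both motifs are frequent: of 32851 windows of this length in the table, 12.4% held TATAAA and 32.7% held GGGCGG on either strand. Of the 11 windows of the factors, 2 held TATAAA, of Cebpa and Mitf. GGGCGG was in 5 of them, of Cebpb and also of Mitf and Tfeb, which fell as Cebpa did.

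A further 10 motifs were searched on both strands in the 11 windows. The loose C/EBP motif TTGCNNAA (9.56% of all windows) occurred in 1, upstream of the first Mitf start, and its special case TTGCGCAA (0.164%) in 0. The E-box CACGTG (6.02%) occurred in 1, from 71 to 66 bases before the distal Runx1 start. The RUNX motif TGTGGT (14.0%) was found in 2 windows, of Tfec and Mitf, the MAF core TGCTGAC (3.81%) in 2 windows of Mitf, and the cAMP response element TGACGTCA (1.55%) in 1 window of Mitf. The PU.1 core GAGGAAG (10.6%), the variant TGACGCAA of the cAMP response element (0.438%), the NF-κB motif (1.41%) and the STAT motif TTCNNNGAA (7.02%) were in 0 of the 11. None of the 11 windows belongs to Spi1, Maf or Cebpd, so these counts say nothing about those factors. A match is a description of letters in these windows, not of binding.

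The C/EBP genes showed the widest spread of changes. Cebpa, at chr7:35119293-35121928 on the plus strand of GRCm38, stood at 45.1, 40.3 and 48.1 FPKM in PBS replicates 1 to 3 and at 14.8, 13.4 and 16.1 FPKM in vesicle replicates 1 to 3. Every vesicle library lay below every PBS library. The means were 44.5 ± 3.92 and 14.8 ± 1.32 FPKM (SD, n = 3 per group, as throughout), 3.01-fold lower with vesicles. The log2 fold change on the log2(FPKM + 1) scale was -1.53 (SE 0.0905, adjusted p = 3.61e-05). Such fold changes understate those of low genes.

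Cebpb, at chr2:167688915-167690418 on the plus strand, moved the other way. Its level was 17.8, 21.1 and 21.5 FPKM in the PBS libraries, whereas the vesicle libraries held 62.7, 50.4 and 69.99 FPKM. Its vesicle libraries varied more than those of Cebpa, with replicate 2 lowest, but all lay above the PBS libraries. The means of 20.2 ± 2.01 and 61.0 ± 9.92 FPKM differed 3.03-fold (log2 fold change 1.54, SE 0.134, adjusted p = 0.000168).

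Cebpd (chr16:15887286-15891031, plus strand) was the factor with the largest change of the 9. The PBS libraries held 2.85, 2.97 and 2.49 FPKM, the vesicle libraries 25.2, 24.2 and 25.0 FPKM. The vesicle libraries were close to each other and far above PBS, and the means of 2.77 ± 0.253 and 24.8 ± 0.530 FPKM differed 8.95-fold. The log2 fold change of 2.78 (SE 0.0624, adjusted p = 1.7e-06) was larger in size than that of 98.9% of the genes tested.

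Ratios within a library do not depend on how libraries are scaled. With PBS, Cebpb stood at 0.396, 0.523 and 0.448 of the Cebpa level, and with vesicles at 4.25, 3.75 and 4.36 times that level. The most abundant transcript of the family per length was thus Cebpa in every PBS library and Cebpb in every vesicle library. Cebpd was at 0.0633, 0.0739 and 0.0518 of the Cebpa level with PBS and at 1.71, 1.804 and 1.56 times it with vesicles. The ratio of Cebpb to Cebpa was 9.07-fold higher with vesicles, that of Cebpd to Cebpa 27.1-fold and that of Cebpd to Cebpb 2.98-fold. Each gave p = 0.1 in an exact two-sided permutation test, the smallest that 3 against 3 libraries allow, and 0.114 after adjustment over the 8 ratios tested.

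Summed over the 3 C/EBP genes, the level was 64.3 to 72.1 FPKM with PBS and 88.01 to 111 FPKM with vesicles, ranges that do not overlap. Cebpa made up 65.9 ± 3.02% of that sum with PBS and 14.7 ± 0.483% with vesicles. The share of Cebpb went from 29.9 ± 2.81% to 60.4 ± 2.95% and that of Cebpd from 4.14 ± 0.611% to 24.9 ± 2.52%. Of the relatives, Cebpg, a short C/EBP protein without an activation domain, fell from 10.4 ± 1.98 to 6.33 ± 0.712 FPKM (log2 fold change -0.63, limma adjusted p = 0.00889). Its call was lost when both replicate 3 libraries were left out (adjusted p = 0.0918). Ddit3, the stress-induced partner CHOP, was not called, at 8.53 ± 0.785 and 7.52 ± 0.420 FPKM, except when PBS replicate 3 was left out (adjusted p = 0.0421). Cebpe, the factor of late neutrophil maturation, was below the filter, with 0.257, 0.340 and 0.408 FPKM in the PBS libraries against 0.0669, 0.0726 and 0.0335 FPKM.

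**Figure D2:**
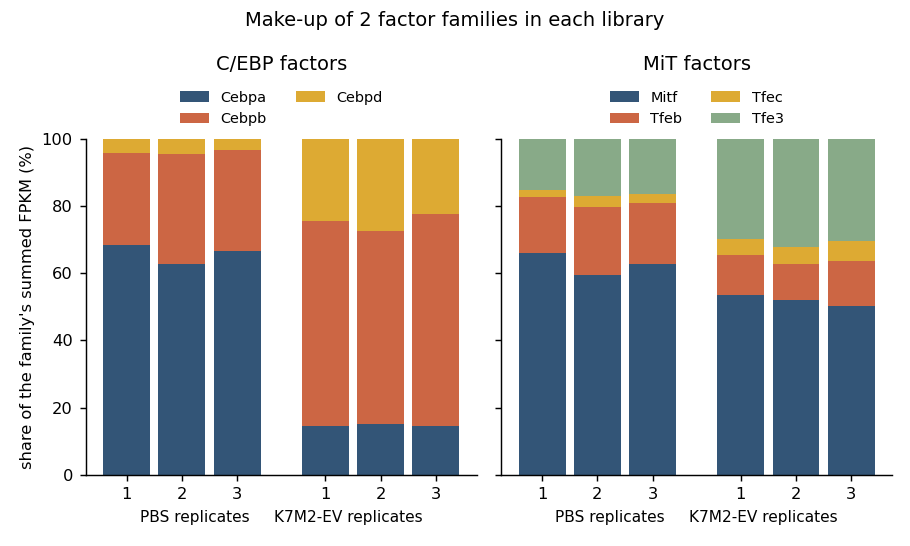
Share of each gene (percent, vertical axis) in the summed FPKM of the C/EBP and MiT families, 1 stacked bar per library. Cebpa holds the largest C/EBP share in the 3 PBS libraries and Cebpb in the 3 vesicle libraries, and the share of Tfe3 goes from a mean of 16.2% with PBS to 30.7% with vesicles.

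The annotated exons of each of the 3 C/EBP genes partly overlap exons of a gene on the opposite strand, and whether reads were counted by strand was not given in the sources used here. For Cebpb the overlap with Tmem189 covers 312 of 1504 exon bases, and Tmem189 went the other way, from 26.5 to 30.6 FPKM with PBS to 16.01 to 19.02 FPKM with vesicles. For Cebpd the overlap with Spidr, a DNA repair gene, covers 562 of 3746 bases, and Spidr stood at 5.38 to 7.06 and 8.02 to 8.73 FPKM. For Cebpa it covers 51 of 2636 bases, with the antisense gene Gm45091 at 1.21 to 1.81 and 0.165 to 0.537 FPKM. The part of shared reads in these levels was not tested.

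Spi1 (chr2:91082390-91115756, plus strand) was the most abundant of the 9 factors per length in both groups. PBS libraries stood at 71.9, 64.5 and 74.4 FPKM and vesicle libraries at 129, 115 and 130.5 FPKM. Replicate 2 was lowest in both groups, and the groups did not overlap. The means of 70.3 ± 5.14 and 125 ± 8.81 FPKM differed 1.78-fold (log2 fold change 0.82, SE 0.0815, limma adjusted p = 3e-04).

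Runx1 (chr16:92601466-92826149, minus strand) was lower in every vesicle library. Its level was 10.9, 10.6 and 11.2 FPKM in the PBS group and 5.42, 6.11 and 5.75 FPKM in the vesicle group. The means of 10.9 ± 0.306 and 5.76 ± 0.346 FPKM gave a log2 fold change of -0.82 (SE 0.0561, limma adjusted p = 6.29e-05). Relative to Spi1, Runx1 was 3.36-fold lower and Cebpa 5.36-fold lower with vesicles (exact permutation p = 0.1 for each, 0.114 adjusted). The ratio of Cebpa to Spi1 varied little within a group, at 0.627, 0.624 and 0.646 with PBS and 0.114, 0.117 and 0.123 with vesicles.

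The RUNX partners and relatives were lower or not called. Cbfb, whose product stabilizes RUNX proteins on DNA, fell from 20.02 ± 1.72 to 15.9 ± 0.227 FPKM (log2 fold change -0.31, limma adjusted p = 0.00943). That call was lost after median-of-ratios scaling (adjusted p = 0.0654) and when both replicate 2 (0.0573) or both replicate 3 libraries (0.102) were left out. Runx2, the osteoblast factor, fell from 1.51 ± 0.216 to 0.721 ± 0.178 FPKM and passed the filter only through its PBS libraries. Runx3 was not called, at 1.33 ± 0.330 and 1.10 ± 0.250 FPKM. The corepressor gene Tle3 fell from 2.15 ± 0.0394 to 1.44 ± 0.223 FPKM, a call lost in 3 of the alternatives. Cbfa2t2, also a corepressor gene, was at 1.48 ± 0.422 and 1.02 ± 0.106 FPKM and was called lower with the replicate block (limma adjusted p = 0.048) but not without it (0.103).

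Among 16 ETS relatives of Spi1, 13 passed the filter, 4 rose and 7 fell, with a median log2 fold change of -0.31. Over all genes tested, 18.4% rose and 35.6% fell, with a median of -0.12. Ets2 had the largest rise, from 11.6 ± 1.19 to 41.3 ± 1.46 FPKM, ahead of Elk1, Elf4 and Etv6 at 0.34, 0.31 and 0.26 on the log2 scale. Etv3, Elf1, Elk4, Erf, Elf2, Etv5 and Gabpa had log2 fold changes from -0.64 to -0.31. Elk3 and Fli1 were not called, but Elk3 was called higher after median-of-ratios scaling (adjusted p = 0.0158) and Fli1 lower with the replicate block (0.0362). When both replicate 3 libraries were left out, 4 of the 7 falls held, and Erf (0.0539), Etv5 (0.0534), Gabpa (0.0664) and, of the rises, Etv6 (0.089) lost their calls. Spib and Spic, the 2 closest relatives of Spi1, were below the filter. Spib was listed at 0, 0 and 0.0119 FPKM in the PBS group, against 1.59, 0.892 and 1.02 FPKM in the vesicle group, and Spic at 0.416, 0.233 and 0.186 and at 0.792, 1.14 and 0.908 FPKM.

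Maf (chr8:115682942-115707794, minus strand) rose from 21.2, 21.04 and 20.1 FPKM in the PBS group to 49.96, 47.3 and 44.6 FPKM in the vesicle group, a 2.28-fold difference of the means. The groups were far apart relative to their spread, at 20.8 ± 0.611 and 47.3 ± 2.66 FPKM (log2 fold change 1.15, SE 0.0594, limma adjusted p = 2.16e-05).

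Among the small MAF genes, Mafk fell from 7.09 ± 0.463 to 3.66 ± 0.280 FPKM and Mafg rose from 17.1 ± 0.814 to 21.5 ± 0.957 FPKM. Their products lack an activation domain. Maff, also a small MAF gene, was not called. Mafa, best known from pancreatic β cells, fell from 1.74 ± 0.264 to 0.132 ± 0.01999 FPKM and passed the filter only through its PBS libraries. The antisense gene Gm15655 overlaps 440 of 8241 exon bases of Maf and stood at 1.24 to 1.95 FPKM with PBS and 2.08 to 3.18 FPKM with vesicles.

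**Figure D3:**
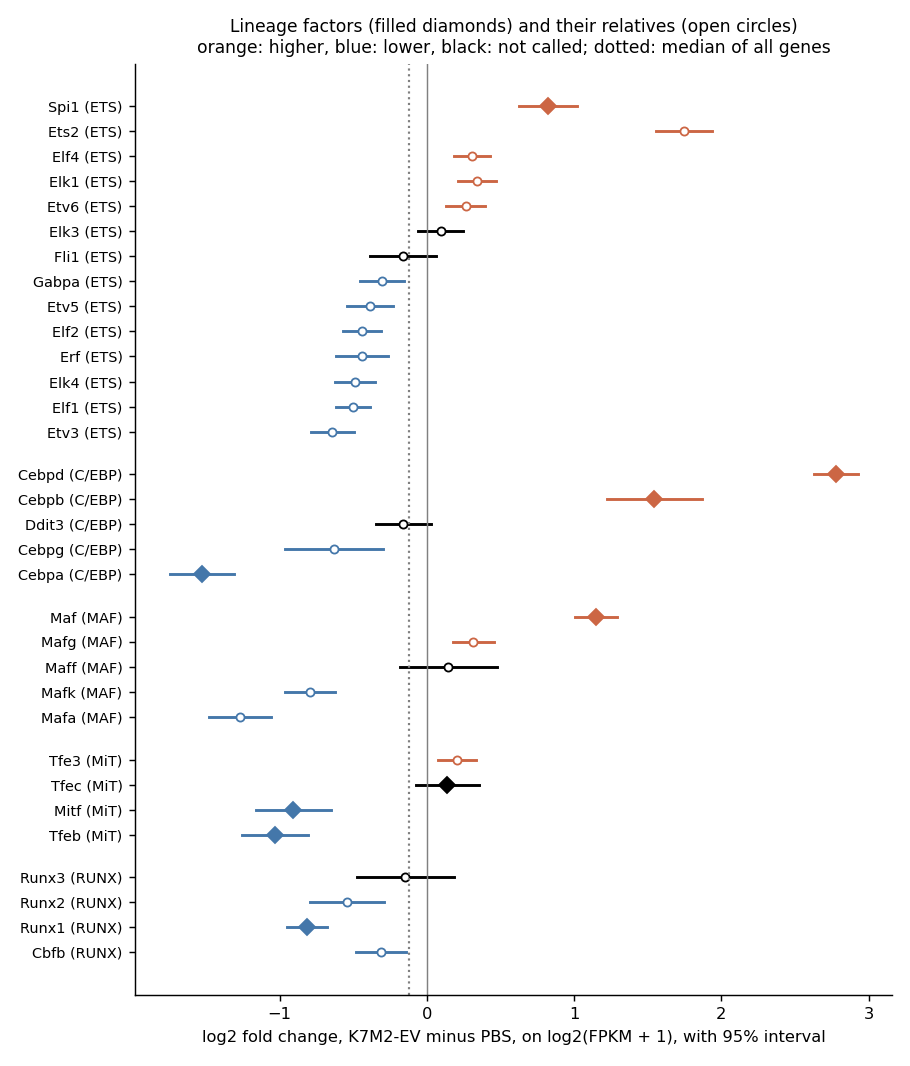
Log2 fold changes of K7M2 vesicles against PBS (horizontal axis, on log2(FPKM + 1)) with 95% intervals, for the 9 factors (filled diamonds) and their relatives (open circles), grouped by family. Within the C/EBP family values run from -1.53 (Cebpa) to 2.78 (Cebpd), and Maf stands at 1.15.

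Of the MiT genes, Mitf and Tfeb fell while Tfec did not pass the test. Mitf (chr6:97807052-98021349, plus strand) was at 26.5, 19.7 and 22.4 FPKM in the PBS libraries. The vesicle libraries held 11.98, 10.99 and 12.0 FPKM. PBS replicate 1 was highest, and the lowest PBS library was still above all vesicle libraries. The means were 22.9 ± 3.40 and 11.7 ± 0.578 FPKM, 1.96-fold lower with vesicles (log2 fold change -0.91, SE 0.106, limma adjusted p = 0.000616).

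Tfeb, the main regulator of lysosome formation, lies at chr17:47737030-47792419 on the plus strand. Its level was 6.72, 6.68 and 6.41 FPKM in PBS libraries and 2.70, 2.31 and 3.22 FPKM in vesicle libraries. The groups did not overlap, and the means of 6.60 ± 0.169 and 2.74 ± 0.456 FPKM differed 2.41-fold (log2 fold change -1.03, SE 0.0935, limma adjusted p = 0.000205). The ratio of Tfeb to Mitf overlapped between groups, at 0.254, 0.339 and 0.286 with PBS and 0.226, 0.210 and 0.268 with vesicles (exact permutation p = 0.2, also after adjustment).

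Tfec (chr6:16833373-16898441, minus strand), a myeloid-restricted member of the family, was the lowest of the 9 factors in both groups. Its level was 0.875, 1.08 and 1.01 FPKM in PBS libraries and 1.10, 1.06 and 1.43 FPKM in vesicle libraries, and the groups overlapped. The log2 fold change was 0.14 with a 95% interval from -0.08 to 0.36 (limma adjusted p = 0.228), which leaves room for a small change in either direction. About 108 to 192 reads per library stood behind these values, a counting error of at most 9.64%, against at least 235 reads for the other 8 factors. After quantile normalization Tfec was called higher (log2 fold change 0.39, limma adjusted p = 0.0129). Relative to Mitf it was 2.34-fold higher with vesicles (exact permutation p = 0.1, 0.114 adjusted).

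Tfe3, the remaining MiT gene, went from 5.86 ± 0.222 to 6.91 ± 0.289 FPKM (log2 fold change 0.20, limma adjusted p = 0.0176). Its call was lost without PBS replicate 3 (0.0555), without vesicle replicate 3 (0.0636) and when both replicate 2 (0.0777) or both replicate 3 libraries (0.159) were left out. Summed over the 4 MiT genes, the level was 33.1 to 40.2 FPKM with PBS and 21.2 to 23.9 FPKM with vesicles. Mitf made up 62.7 ± 3.21% of that sum with PBS and 51.8 ± 1.55% with vesicles. Tfeb went from 18.3 ± 1.74% to 12.1 ± 1.29%, while Tfe3 went from 16.2 ± 0.958% to 30.7 ± 1.31%.

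The order of the 9 levels differed between the groups. With PBS it was Spi1, Cebpa, Mitf, Maf, Cebpb, Runx1, Tfeb, Cebpd and Tfec, where Mitf and Maf, and Maf and Cebpb, overlapped in their libraries. With vesicles it was Spi1, Cebpb, Maf, Cebpd, Cebpa, Mitf, Runx1, Tfeb and Tfec, with no overlap between neighbours. Cebpa thus moved from the second place to the fifth and Cebpd from the eighth to the fourth. In bulk RNA, fewer cells of a type and less RNA per cell cannot be told apart.

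The identity of the cells was checked with marker lists. Macrophage markers summed to 4235 to 5121 FPKM with PBS and 12690 to 14170 FPKM with vesicles. Of the 8 genes, 6 rose, beside 18.4% of all genes tested. Most of the sum was the lysozyme gene Lyz2, at 3746 ± 401.3 and 10860 ± 902.5 FPKM. Cd68 fell from 410.8 ± 35.33 to 202.3 ± 11.67 FPKM. Mertk was called higher only after median-of-ratios scaling (limma adjusted p = 0.0397), and the rise of Itgam lost its call in 7 of the alternatives. The M-CSF receptor gene Csf1r went from 179 ± 19.2 to 230 ± 17.1 FPKM (limma adjusted p = 0.0219), a call lost in 4 of the alternatives. Neutrophil markers, of which 4 of 9 passed the filter, summed to 9.97 to 15.4 and 60.4 to 64.5 FPKM. S100a8 and Csf3r made up most of this and were called higher. Camp was also called higher, from 0.200 ± 0.133 to 2.22 ± 1.01 FPKM, but passed the filter only through its vesicle libraries. S100a9 was not called. Ly6g was at 0 in all vesicle libraries and Mpo reached at most 0.0292 FPKM, and Ngp, Ltf and Cxcr2 were below the filter too. Mesenchymal markers, a list that also covers osteosarcoma cells, summed to 124 to 296 FPKM with PBS and 206 to 576 FPKM with vesicles, the highest in replicate 2 of each group. In every replicate number the vesicle library was above the PBS library for the collagen gene Col1a1, at 65.4 against 131, 155 against 354 and 74.3 against 128 FPKM. With the replicate number as a block, Col1a1 (limma adjusted p = 0.00118), Col1a2 (0.00321), Col3a1 (0.00118) and Sparc (0.0194) were called higher. Without the block none of these 4 was called (0.134, 0.407, 0.135 and 0.64). With both replicate 2 libraries left out they were called higher as well (0.00158, 0.00522, 0.00066 and 0.0418). Of the 12 mesenchymal genes listed, 6 passed the filter. Beside those 4 they were Runx2, called lower with and without the block, and Pdgfrb, called in neither. Runx2 passed only through its PBS libraries. Dendritic markers summed to 178 to 212 and 98.2 to 115 FPKM, with Itgax the 1 gene of 7 above the filter, and the lymphocyte markers with a row summed to 0.543 to 0.796 and 0.159 to 0.251 FPKM. Osteoclast markers summed to 30.1 to 44.1 and 90.3 to 122 FPKM, with Calcr, an osteoclast-defining gene, at 0 in the PBS libraries and at most 0.0205 FPKM in the others. The higher sum was that of Acp5, at 8.53 ± 0.475 and 93.3 ± 19.2 FPKM. The fusion gene Dcstamp fell from 4.74 ± 1.01 to 1.86 ± 0.603 FPKM, a call lost when both replicate 1 libraries were left out (adjusted p = 0.0504). The protease gene Ctsk stood at 21.5 ± 9.18 and 11.5 ± 4.97 FPKM, and its fall passed the test under the replicate block (limma adjusted p = 0.00267) but not without it (0.0883). The part of these cells in the levels of the factors was not tested.

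Genes known as targets of the factors were taken from lists chosen by knowledge of the pathway, but with earlier results of these data known. Their medians stand beside -0.12 for all genes, and their counts beside 18.4% higher and 35.6% lower of all genes tested. A list's count shows nothing about which factor acts on it. Of 25 genes known as PU.1 targets, all passed the filter, 17 rose and 3 fell (median 0.57). Il1b, which encodes interleukin-1β, passed only through its vesicle libraries, and without it 16 rose and 3 fell (median 0.52). When PBS replicate 2 was left out, 5 of the list fell. Adgre1, which encodes F4/80, rose from 170 ± 27.2 to 1824 ± 183 FPKM (log2 fold change 3.42), and the mannose receptor gene Mrc1 and the endosomal marker gene Cd68 fell by 3.31 and 1.02 on that scale.

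Of 20 genes known as C/EBP targets, 16 passed the filter, and 8 of these did so only through their vesicle libraries and so had to be higher. Among the other 8, 7 rose and 0 fell, with a median of 1.49. The largest rises of those 7 were those of the central complement gene C3, from 1.26 ± 0.134 to 114 ± 15.0 FPKM, and of S100a8, which encodes an alarmin, from 3.07 ± 0.186 to 39.5 ± 2.04 FPKM. The acute-phase genes Saa3 and Hp are among the 8 that were low with PBS, with log2 fold changes of 10.41 and 6.08. S100a9, which encodes the partner of the S100a8 product, was not called. The genes Cd14, Lyz2, Itgam and Il1b are in the PU.1 list too.

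Lysosome and autophagy genes with TFEB-type sites (the CLEAR network) were mostly lower. Of 39, all passed the filter, 29 fell and 3 rose, with a median of -0.60. Their summed level was 6816 to 7767 FPKM with PBS and 3288 to 3468 FPKM with vesicles. Atp6v0d2, a subunit of the vacuolar proton pump, fell by 4.14 and Gpnmb, a lysosomal glycoprotein gene, by 2.12. Clcn7, the lysosomal chloride/proton exchanger gene, and Gaa, the acid glucosidase gene, rose by 0.74 and 0.54.

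Genes that control where MiT proteins reside in the cell gave 3 higher and 10 lower of 20 that passed, out of 21 (median -0.22). Over all genes tested, 18.4% were higher and 35.6% lower. After median-of-ratios scaling 5 of the location genes were higher. Among the location genes, the folliculin partner gene Fnip2 fell from 49.3 ± 4.77 to 10.9 ± 0.159 FPKM. The Rag GTPase gene Rragd fell from 5.44 ± 0.234 to 0.577 ± 0.1299 FPKM and passed only through its PBS libraries. Without it the location list has 3 higher and 9 lower (median -0.15) and the CLEAR list 3 higher and 28 lower (median -0.60). Flcn, Fnip1, Fnip2, Rragc, Rragd and Mcoln1 of this list are in the CLEAR list as well. Ppp3r1, a calcineurin subunit gene, and Lamtor2, of the lysosomal scaffold, rose by 0.52 and 0.30. Of 15 osteoclast genes linked to MITF and TFEC, 11 passed, 4 rose and 6 fell (median -0.50). Itgb3, an integrin gene, passed only through its PBS libraries, and without it 4 rose and 5 fell (median -0.44). Mmp9 and Acp5 rose by 6.79 and 3.29, and Clcn7, Atp6v0d2 and Gpnmb are shared with the CLEAR list.

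**Figure D4:**
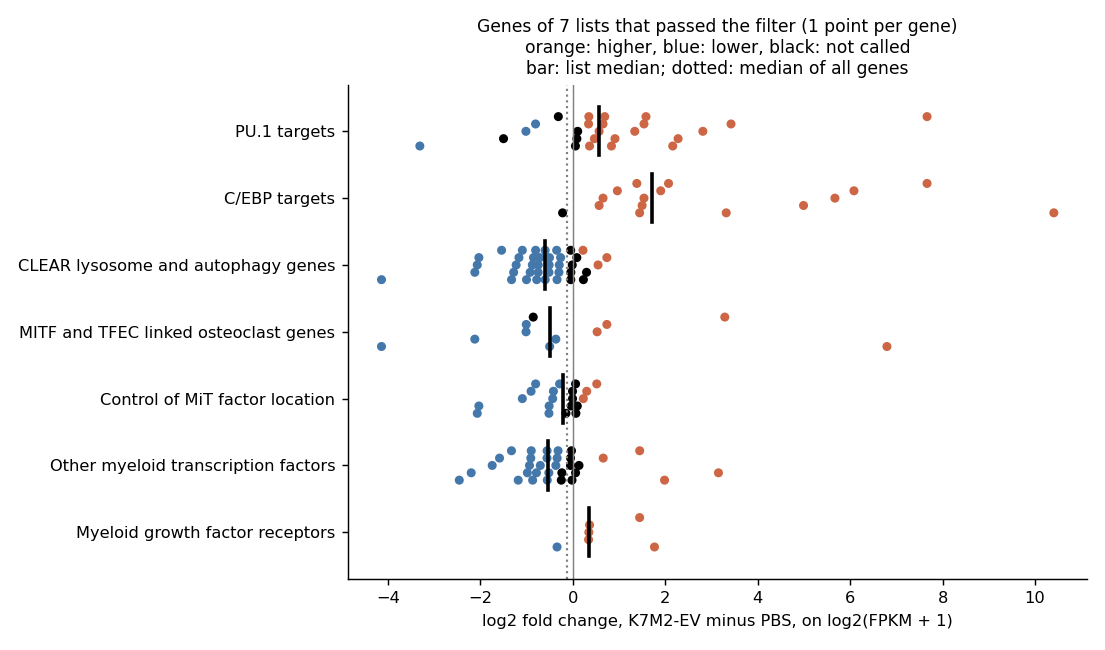
Log2 fold changes of K7M2 vesicles against PBS (horizontal axis, on log2(FPKM + 1)) for the genes of 7 lists that passed the filter, 1 point per gene and a bar at each list's median. The median is -0.60 for the CLEAR genes, 0.57 for PU.1 targets and 1.72 for the 16 C/EBP targets that passed, 8 of which passed only through their vesicle libraries, beside -0.12 for all genes (dotted line).

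Of 36 other transcription factor genes known from myeloid cells, 32 passed the filter, 4 rose and 20 fell (median -0.54), but 5 of those that fell passed only through their PBS libraries. Among the other 27, 4 rose and 15 fell, with a median of -0.34, beside 18.4% and 35.6% of all genes tested. Of those 15, Egr2, Tcf4 and Id1 lost their calls in 7, 3 and 1 of the alternatives, each when both replicate 3 libraries were left out. Of the 5 that passed only through PBS, Klf4 lost its call in 9, and Egr1 and Mef2c in 1 each. Batf, an AP-1 family gene, rose from 1.22 ± 0.160 to 18.7 ± 1.08 FPKM and Nr1h3, the liver X receptor α gene, from 3.36 ± 0.265 to 16.2 ± 1.04 FPKM. Pparg, the fatty acid-sensing receptor gene, fell from 12.3 ± 0.413 to 1.43 ± 0.268 FPKM and Bhlhe40 from 13.5 ± 0.393 to 2.16 ± 0.267 FPKM. Irf8, the monocyte lineage factor and a partner of PU.1, fell from 18.0 ± 1.64 to 11.9 ± 0.739 FPKM (log2 fold change -0.55, limma adjusted p = 0.00155).

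The genes most like Cebpd, which had the largest rise, were found by distance between centred log2(FPKM + 1) profiles over the 6 libraries. They were Fgr, Tlr2, Zbp1, Bcl3 and U90926, at distances of 0.19 to 0.21. The kinase gene Fgr went from 1.19 ± 0.0408 to 14.4 ± 0.665 FPKM and the receptor gene Tlr2 from 6.78 ± 0.121 to 52.7 ± 1.97 FPKM. For Cebpa, which had the largest fall, they were Ptpra, Wdr91, Galnt12, Cdk18 and Eepd1, at 0.11 to 0.16. The phosphatase gene Ptpra went from 88.4 ± 6.59 to 31.4 ± 1.82 FPKM. These likenesses are set mainly by the size of the difference between the 2 groups and have no test.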

How the data were processed

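RNA of 6 libraries was measured, 3 per group, with groups and replicate numbers from the sample titles. The authors deposited FPKM values, 1 table of 26883 gene rows per library. Per the submitters' processing notes, the tools were HISAT2 2.1.0, CASAVA 1.8, edgeR and StringTie 1.3.4b and the build was GRCm38, with roles, order and strand setting not given in the sources used here. A row without a value (1) and 47 repeated symbols (lower mean) were dropped. FPKM times exon length (GENCODE M21, 99.6% of genes matched) fell in steps that imply 21333400 to 25689900 reads per library; 72.2% to 73.1% of values up to 20 reads were whole numbers to within 0.1 (20% by chance).

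The filter asked for 1 FPKM or more in 3 or more libraries. Tests used log2(FPKM + 1), without further scaling, and limma 3.58.1 in R 4.3.3 (trend and robust eBayes, statmod 1.5.0; Benjamini-Hochberg over 13009 genes, threshold 0.05). Python 3.11.15 with pandas 2.3.3, scipy 1.17.1 and matplotlib 3.10.9 did the rest. The filter and the limma fit were tested on simulated data, and the other steps were not.

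The factors and lists were chosen with earlier results of these data known. The rule named the 9 factors, relatives that passed the filter, Tfe3, Irf8, Csf1r and Cbfb, the 2 largest called rises and falls of a list, and the 5 nearest profiles. Other genes named (such as C3, S100a8, S100a9, Cebpe, Spib, Spic, and marker or overlapping genes) were chosen with their values known. A gene that the rule also named, and the results that need it, are not reported here.

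Libraries with the same number shared deviations from their groups (correlations of 0.317, 0.294 and 0.209 across genes). By this the numbers may pair the samples, although no label states it. The p-values given are nonetheless from fits and permutations without pairs, unless a block is named. Blocking on the replicate number was 1 of the alternatives, beside other pseudocounts, filters, scalings, a voom fit on approximate reads and left-out libraries.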

Additional observations from a re-analysis of the deposited data

How the results depend on the processing

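The 8 called factors kept their call and direction in all 17 alternatives. Log2 fold changes ran from 0.76 to 0.97 for Spi1, 1.10 to 1.29 for Maf, 1.44 to 1.71 for Cebpb, 2.72 to 3.17 for Cebpd, -1.60 to -1.39 for Cebpa, -0.92 to -0.69 for Runx1, -1.003 to -0.77 for Mitf and -1.28 to -0.91 for Tfeb. The highest adjusted p among these was 0.019, for Mitf. Tfec, not measured with a filter of 5 FPKM, ran from 0.07 to 0.39. With the replicate number as a block, 2495 genes were higher and 4787 lower, and 4 factors higher and 4 lower, so that the block changed no call among the factors. In the lists described here it changed the calls of Fli1, Cbfa2t2, Ctsk and 4 mesenchymal genes, as given with them. With the block Neu1 of the CLEAR list was also called higher (limma adjusted p = 0.041, 0.0524 without it). Fosl2, of the other myeloid factors, was called lower (0.0327, against 0.124 without it). Over all genes, the filter of 5 FPKM gave 2153 lower genes of 6409 tested, since fewer genes enter. Leaving out both libraries of replicate 3 gave 1531 higher and 2847 lower, with 4 libraries in the fit. Quantile normalization gave 3135 higher and 3282 lower. Leaving out 1 library at a time gave 1993 to 2416 higher and 3896 to 4281 lower genes. The within-library ratios kept their sign in all settings run. With 3 libraries per group the p of a ratio cannot fall below 0.1, and counting error limits Tfec most.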

Other observations

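Genes that act on C/EBPα protein and receptors that feed the lineage factors were also measured. Trib1, whose product directs C/EBPα to degradation, rose from 3.21 ± 0.163 to 14.2 ± 0.601 FPKM (SD, n = 3 per group; log2 fold change 1.85, limma adjusted p = 3.9e-06). Cop1, the ubiquitin ligase that works with TRIB1, rose from 2.87 ± 0.0604 to 3.99 ± 0.150 FPKM (limma adjusted p = 0.00154). Trib2 was below the filter, with 0.614, 1.15 and 0.315 FPKM in the PBS libraries against 0.270, 0.609 and 0.310 FPKM. These are transcript levels, and protein was not measured.

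Among 8 myeloid growth factor receptor genes, 6 passed the filter, 5 rose and 1 fell. Over all genes tested, 18.4% rose and 35.6% fell. Il4ra, the interleukin-4 receptor gene, rose from 4.83 ± 0.497 to 18.8 ± 0.250 FPKM, and Csf3r, the G-CSF receptor gene, from 7.11 ± 2.64 to 20.3 ± 0.442 FPKM. Tnfrsf11a, which encodes the osteoclast receptor RANK, fell from 43.3 ± 2.52 to 33.9 ± 1.46 FPKM, a call that depended on replicate 3 (adjusted p = 0.0646 with both its libraries left out). Csf2ra and Csf2rb, the GM-CSF receptor genes, rose by 0.35 and 0.34 on the log2 scale. Those calls were lost in 8 and 9 of the alternatives, with adjusted p up to 0.186 and 0.199, and the list's count of rises then fell to as few as 2. Flt3 and Kit, receptors of progenitors, were below the filter.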
